A study of Sus scrofa with 80 samples.

Results

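Testes of young boars that held protamine transcripts were set against testes of young boars that did not. The 9 testes of the series were divided by the level of protamine 1 (PRM1), the small basic protein that packs DNA in the sperm head, at a log2 signal of 6: 3 testes were at or above it (called PRM1-high below) and 6 were under it (PRM1-low), out of 9 testes and 80 arrays in all. The PRM1-high testes were those of LWM02 (9.24), YLM19 (12.03) and YLM20 (11.93), and the PRM1-low testes were those of DUM12 (2.38), DUM15 (2.33), IBM23 (2.43), IBM24 (2.33), LWM04 (2.43) and YLM18 (2.49). The lowest testis above the division and the highest below it were therefore LWM02 at 9.24 and YLM18 at 2.49, with no testis in between. The letters name the breed, Large White (LW), Duroc (DU), Youli (YL) or Iberian (IB), followed by M for male and the number of the animal.

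The study hybridised RNA of 5 tissues of 16 pigs (hypothalamus, adenohypophysis, thyroid gland, gonad and backfat) to Affymetrix porcine arrays, with 1 array per tissue and animal. Mean age at slaughter, over both sexes of a breed, was 87 days in LW, 83 in DU, 80 in YL and 89 in IB, and mean live weight was 27.2, 23.1, 18.9 and 17.4 kg, respectively. No age or weight of a single animal was used here. All pigs were untreated, were housed at the same time on the same diets and were fasted before slaughter. They came from several breeding companies, so that the groups may differ in age, weight and origin as well as in breed. The PRM1-high group held 1 LW and 2 YL boars, and the PRM1-low group held 2 DU, 2 IB, 1 LW and 1 YL. Every DU and IB testis was thus PRM1-low, and only LW and YL allow a comparison within a breed. Each testis is 1 animal and 1 array of a piece of whole tissue that mixes germ cells, Sertoli cells, Leydig cells and vessels.

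In the seminiferous tubule, spermatogonia divide, enter meiosis as spermatocytes and then become round and elongating spermatids, and the first wave of this process runs before puberty. Genes of meiosis, of the acrosome, of germ cell forms of glycolytic enzymes and of the flagellum come on during this process. The transition proteins and protamines, which replace histones in the spermatid nucleus, come on late. Sertoli cells nurse the germ cells and, while immature, secrete anti-Müllerian hormone (AMH), and Leydig cells make testosterone. In RNA of whole tissue, fewer cells of a type and less RNA per cell cannot be told apart.

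Because PRM1 on these same arrays chose the groups, differences between the testes are given as a description, with no test. A probeset or gene was called higher (or lower) where the 2 groups did not overlap and their means differed by at least 1 on the log2 scale. By this rule 1132 of 23999 probesets were higher in PRM1-high testes, a share of 4.72%, and 474 were lower, a share of 1.98%. With 1 probeset per gene symbol, 449 of 6765 genes were higher (6.64%) and 174 were lower (2.57%). The median difference over all genes was -0.02 log2. These shares are the background for the counts of list members below, and since the contrast itself was set by PRM1 nothing is read from them.

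The arrays were alike in general properties. The male gonads had a Y-linked transcript, EIF1AY, at 8.74 to 9.33, against 2.64 to 2.90 in the 7 ovaries. Between 11541 and 11881 probesets reached log2 5 in a testis, a level called detected from here on, and array medians lay between 4.76 and 4.93. Pearson's r over probesets was 0.979 to 0.987 between PRM1-high testes, 0.976 to 0.988 between PRM1-low testes and 0.932 to 0.977 across the groups. Of 3 pairs of 3′ and 5′ control probesets, 1 GAPDH pair differed without overlap (3′ minus 5′ of 1.35 to 1.51 log2 in PRM1-high and 1.61 to 1.75 in PRM1-low testes), while the other GAPDH pair and the actin pair overlapped; the part of RNA quality in the results was not tested. Values of about 2 to 3 lie at the bottom of the scale, whose lower decile over the 9 testes was 2.13, so that a difference against them depends on the background correction.

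The protamine cluster, which holds the gene that made the groups, was at the bottom of the scale in all PRM1-low testes. PRM1, PRM2, PRM3 and the transition protein gene TNP2 lie side by side among the protein-coding genes of the reference genome, and all but PRM3 were measured. PRM2, the second protamine, was at 7.53 in LWM02, 9.95 in YLM19 and 9.42 in YLM20, and at 2.32 to 2.41 in the 6 PRM1-low testes. TNP2, which takes part in the exchange of histones for protamines, was at 6.73, 10.05 and 9.48 in the same 3 testes and at 2.33 to 2.44 in the others. LWM02 was the lowest of the 3 for all these genes, by over 1 log2. The differences were 6.60 for PRM2 (8.97 ± 1.27, SD, n = 3, against 2.37 ± 0.03, n = 6) and 6.36 for TNP2 (8.75 ± 1.77 against 2.39 ± 0.04). The nearest measured genes on either side of the cluster, LITAF and SOCS1, were not called, with differences of -0.94 and -0.78. Of the 9 measured genes of the chromatin condensation list 5 were higher and 0 were lower, with a list median of 1.14. PRM1 itself, whose call was fixed by the division, is counted in the 9 and the 5. CREM, a transcription factor known for switching on spermatid genes, was also among the 5. It was at 9.85 to 11.05 in PRM1-high and 7.51 to 8.29 in PRM1-low testes.

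**Figure D1:**
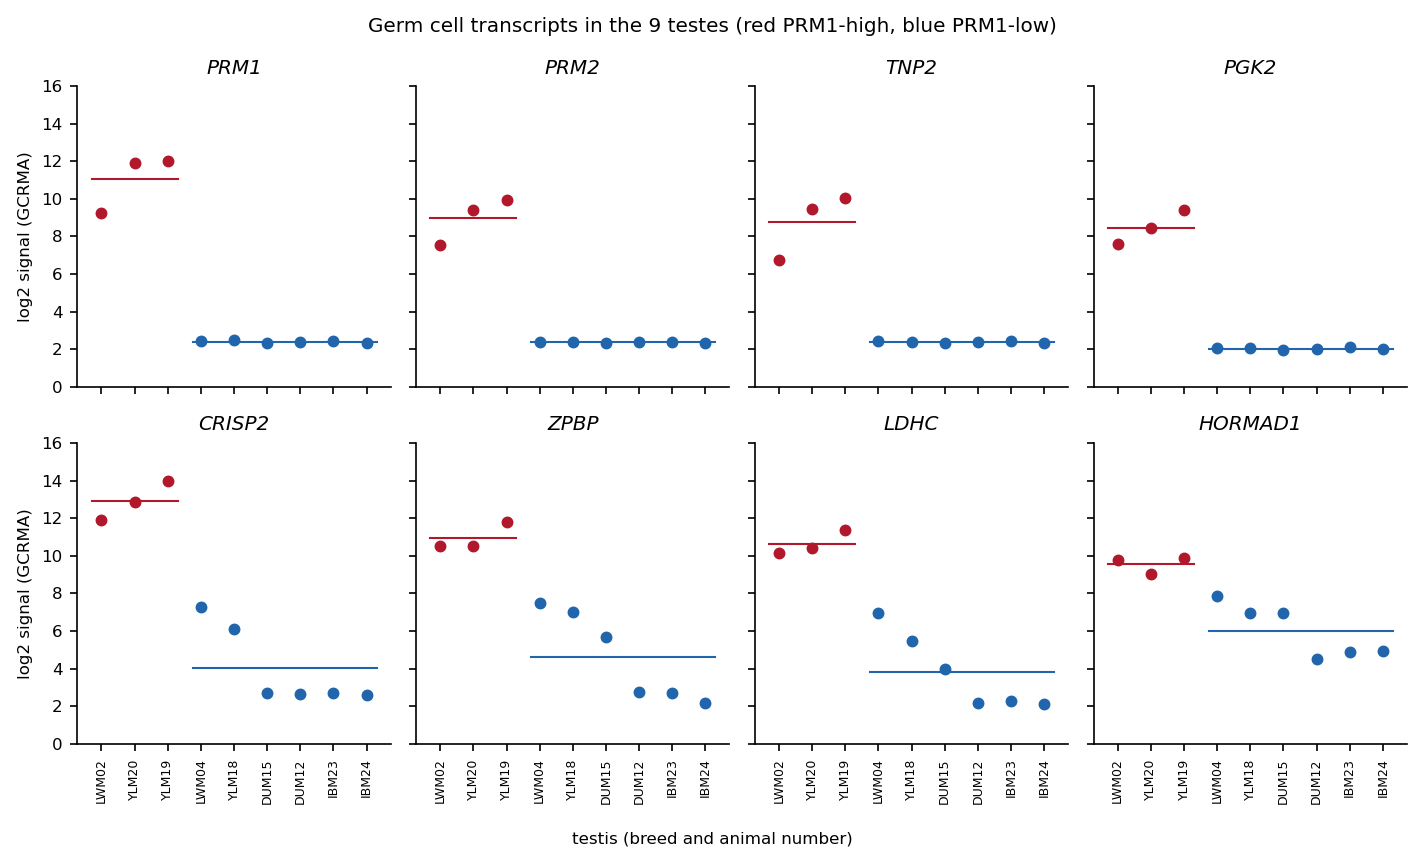
Log2 signal of 8 germ cell transcripts in each of the 9 testes, PRM1-high in red and PRM1-low in blue, with the mean of each group as a line. PRM1, PRM2, TNP2 and PGK2 sit at the bottom of the scale in all 6 PRM1-low testes, whereas CRISP2, ZPBP, LDHC and HORMAD1 are raised in LWM04 and YLM18 and, except for CRISP2, in DUM15.

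The label of the groups, with against without spermatid transcripts, held for the protamine cluster but not for the other 3 marker genes. CRISP2, a cysteine-rich protein of the acrosome and sperm tail, was at 11.91 in LWM02, 14 in YLM19 and 12.84 in YLM20. In the PRM1-low group it was at 7.28 in LWM04 and 6.10 in YLM18, and at 2.59 to 2.73 in the 4 DU and IB testes. ZPBP, a protein of the acrosome that binds the zona pellucida, was at 10.51 to 11.81 in the PRM1-high testes, at 7.48 in LWM04, 7.03 in YLM18 and 5.70 in DUM15, and at 2.16 to 2.77 in the other 3. LDHC, the lactate dehydrogenase of germ cells, was at 10.17 to 11.36 in the PRM1-high testes, at 6.96 in LWM04, 5.46 in YLM18 and 3.97 in DUM15, and at 2.14 to 2.27 in the rest. LWM04 and YLM18, and to a lesser degree DUM15, therefore held these transcripts at an intermediate level although their PRM1 was at the bottom of the scale. The PRM1-low group was accordingly not uniform: its SD was 2.11 for CRISP2, 2.38 for ZPBP and 2.02 for LDHC, against 0.06 for PRM1.

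Of 10 measured genes of meiosis and spermatocytes, 6 were higher and 0 were lower, with a median difference of 2.58 log2, and the 4 not called differed by -0.34 to 0.92. In 4 of the 6 (HORMAD1, NEK2, DDX25 and HSPA2), LWM04, YLM18 and DUM15 were the upper 3 of the PRM1-low testes, in varying order. HORMAD1, a protein of the meiotic chromosome axis, was at 9.05 to 9.87 in PRM1-high testes, at 7.88 in LWM04, 6.98 in YLM18 and 6.94 in DUM15, and at 4.50 to 4.92 in the remaining 3. NEK2, a centrosomal kinase, differed by 3.54 (9.72 ± 0.38, n = 3, against 6.18 ± 0.98, n = 6) and DDX25, an RNA helicase of spermatocytes and spermatids, by 3.23 (8.68 ± 0.52 against 5.46 ± 0.88). For both, LWM04 was the highest of the 6 PRM1-low testes. HSPA2, a heat shock protein that is required for meiosis in spermatocytes, was high in all testes and differed by 1.94 (11.33 ± 0.32 against 9.39 ± 0.57). TCP11 stood apart from the other members, at 6.95 to 8.82 in PRM1-high testes and at 2.38 to 2.51 in all 6 others, as did ADAM2, a sperm surface protein, except in LWM04 (4.97) and YLM18 (3.35).

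Genes of the acrosome and of zona binding were higher in 5 of 6 cases, with 0 lower and a median difference of 4.48. ACRBP, which binds proacrosin, differed by 5.78 (10.14 ± 0.75 against 4.36 ± 1.00), and it was at 5.84 in LWM04 and 5.17 in YLM18. Zonadhesin (ZAN) was at 4.40 to 6.38 in PRM1-high testes and at 1.94 to 2.03 in the others. ACR, the acrosin precursor, stayed dim in all testes, at 2.99 to 4.45 against 2.23 to 2.38. SPAM1, the sperm hyaluronidase, was not called: it was at 6.83 in YLM19 only, and at 3.03 in YLM20 and 2.52 in LWM02, the last of which lay within the range of the PRM1-low testes. YLM19 was thus the single testis in which this gene was detected.

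Of the 10 genes of the sperm tail and flagellum, 9 were higher and 0 were lower, with a median difference of 2.65. ODF1, the main protein of the outer dense fibres, was at 7.09 in LWM02, 9.25 in YLM19 and 8.54 in YLM20, and at 1.98 to 2.06 in the 6 others. SPA17, a protein of the fibrous sheath, was at 9.39 to 10.85 in PRM1-high testes, at 6.11 in LWM04 and 5.16 in YLM18, and at 3.20 to 4.19 in the DU and IB testes. ROPN1L, also of the fibrous sheath, differed by 4.12 and the microtubule protein TEKT1 by 2.27. TEKT1 was mainly a matter of YLM19, at 7.08 there against 3.58 in LWM02 and 4.25 in YLM20. GSTM3, a glutathione transferase, was abundant in all testes and differed by 2.74 (12.56 ± 0.46 against 9.81 ± 0.65).

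Among germ cell forms of energy enzymes, 3 of 8 genes were higher and 0 were lower, with a median difference of 0.11. PGK2, the testis form of phosphoglycerate kinase, was at 7.57 to 9.39 in PRM1-high testes and at 1.99 to 2.10 in the others, with a difference of 6.43. PGAM2, a phosphoglycerate mutase shared with muscle, was at 7.74 to 9.49 against 3.47 to 3.80. LDHC completed the 3, and the forms used by all cells were not called: TPI1 differed by 0.06 and HK1 by 0.16. The calls of this list were thus LDHC, PGK2 and PGAM2, whose use is particular to germ cells or shared with muscle.

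Taking the 5 lists of meiosis, energy enzymes, acrosome, chromatin and tail together, 28 of 43 genes were called higher and 0 lower. PRM1, whose call was fixed by the division, is counted in both the 43 and the 28. Outside the lists, the 12 genes with the largest positive differences also included PHF7, a reader of histone marks known from the male germ line (6.43), PEBP4 (6.11), whose probeset the study also listed for breed variation in the testis but without a gene name, and STAT4, a transcription factor of cytokine signalling (5.86). PHF7 was at 7.49 in LWM04, 4.96 in YLM18, 5.09 in DUM15 and 2.07 to 2.14 in the other 3, in the manner of LDHC. PEBP4 also averaged 6.92 in backfat and reached 10.64 in an array outside the gonads, above its PRM1-high testis mean of 9.08. STAT4 was at 6.68 to 9.19 in PRM1-high testes and at 1.94 to 2.04 in all others, in the manner of PGK2, although the 7 ovaries had it at a median of 6.08 and its second probeset was not called.

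The level pattern of PRM1 over the 9 testes was followed most closely by PRM2 (Pearson's r = 0.999), ODF1 (0.999), EFHD1 (0.998), TCP11 (0.998), BSP1 (0.996), PGK2 (0.996), PGAM2 (0.996), TNP2 (0.995), LOC100152209 (0.995) and EFCAB12 (0.993). All 9 points share the division into 3 high and 6 low testes that PRM1 itself made, so that a high r says mainly that a gene was flat in the PRM1-low group. The range over the testes was small for some of them, 1.76 log2 for BSP1 and 1.37 for EFCAB12, against 7.63 for PRM2.

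**Figure D2:**
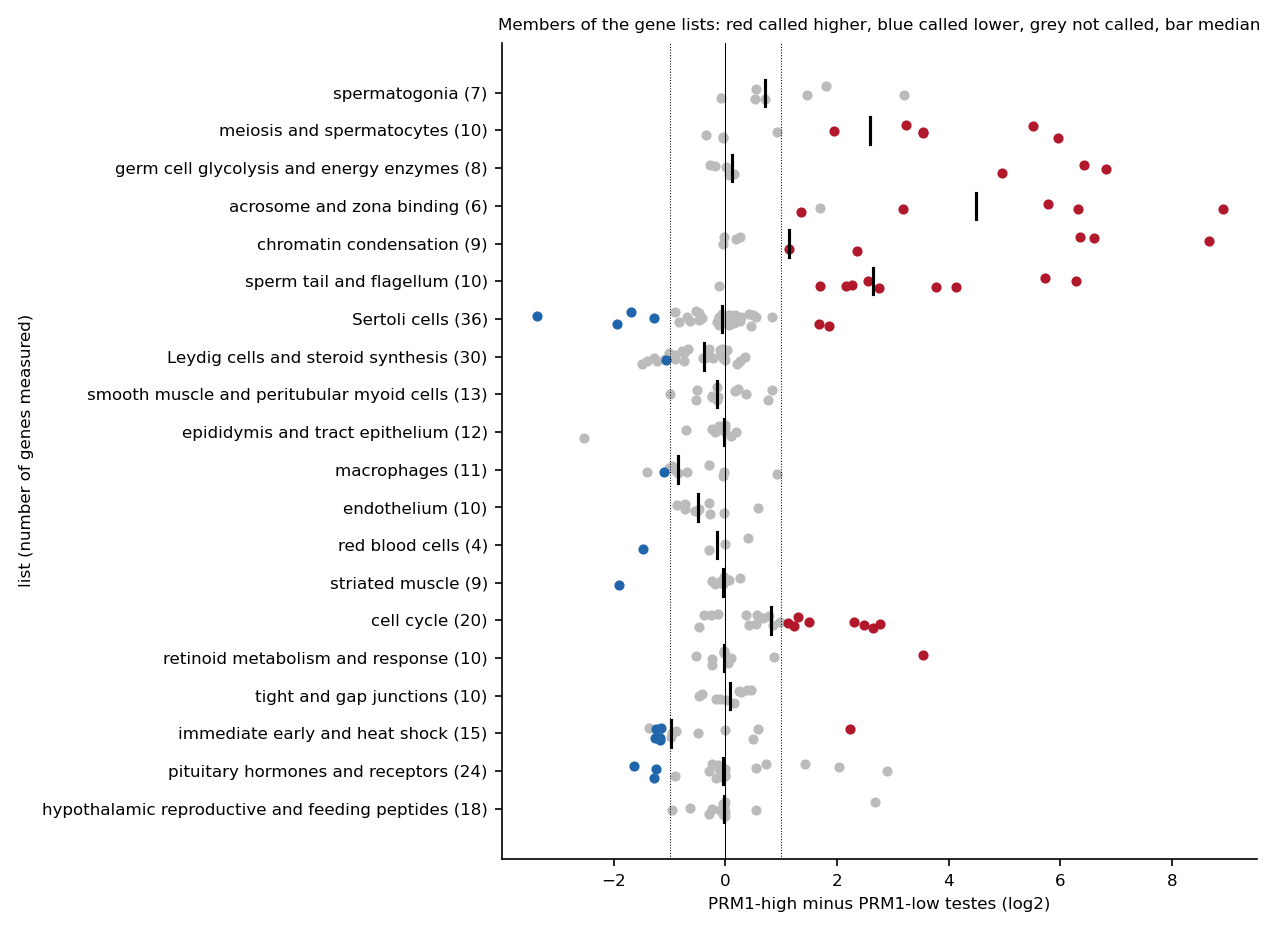
Difference between PRM1-high and PRM1-low testes in log2 for each measured member of 20 gene lists, with members called higher in red, called lower in blue and not called in grey; the black bar is the median of a list. The lists of meiosis, acrosome, chromatin and tail extend to the right, up to 8.91 for CRISP2, and the immediate early list has 5 members called lower.

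Some transcripts were not detected in any PRM1-low testis, whereas others were only less abundant there. Of the 1132 probesets called higher, 899 were detected in all 3 PRM1-high testes. Of these, 164 (18.2%) were detected in none of the 6 PRM1-low testes, a pattern that by itself keeps the groups from overlapping. Of all probesets, 11096 were detected in the 3 PRM1-high testes, and 172 of them (1.55%) in none of the 6. In contrast, 486 of the 899 were detected in all 6 and were thus differences of level, against 10127 of the 11096. Of the 899, 678 were detected in LWM04, 655 in YLM18, 654 in DUM15, 579 in DUM12, 569 in IBM24 and 526 in IBM23. LWM04 thus had most and IBM23 fewest. Of the 11096, the numbers in the same order were 10706, 10719, 10720, 10574, 10572 and 10399. The threshold was crossed in no other tissue and no ovary by 55 of the 899 (6.12%), against 82 of 11096 (0.739%) for all probesets, and by 67 (7.45% against 0.892%) without the backfat array of YLM19, which is described below.

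The 3 PRM1-high testes were themselves ordered. YLM19 was the highest of the 3 for 82.0% of the 1132 probesets called higher, LWM02 for 14.5% and YLM20 for 3.53%. For the 474 called lower, YLM19 was the lowest of the 3 for 62.2%, LWM02 for 26.6% and YLM20 for 11.2%. Against the mean of the 6 PRM1-low testes, the median of the probesets called higher was 2.14 log2 above in YLM19, 1.45 in LWM02 and 1.43 in YLM20. YLM19 thus lay farthest from the PRM1-low group in both directions, although its PRM1 (12.03) was close to that of YLM20 (11.93).

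Of 7 measured genes of the spermatogonia list, 0 were called in either direction, with a median difference of 0.71, although the mean level of the list was 6.01 to 6.42 in PRM1-high and 4.38 to 5.64 in PRM1-low testes. EPCAM, a surface protein of undifferentiated spermatogonia and of epithelia, had the largest difference, 3.20. It was at 4.78 in LWM02, 8.33 in YLM19 and 6.61 in YLM20, and the groups overlapped only through YLM18 (4.83), the other 5 being at 2.58 to 3.46. DMRT1, a transcription factor of Sertoli cells and spermatogonia, was at 10.53 ± 0.51 in PRM1-high and 9.97 ± 0.62 in PRM1-low testes, and UCHL1, a marker of gonocytes and spermatogonia, was at 9.07 ± 0.96 and 8.36 ± 0.67. KIT, the stem cell factor receptor of differentiating spermatogonia, was at 6.54 to 8.32 and at 4.22 to 7.61, with overlap through LWM04. DDX4, a helicase of the germ line, was at 5.42 in LWM02, 3.74 in YLM19 and 2.38 in YLM20, and at 2.29 to 2.62 in the others. In the cell cycle list 8 of 20 genes were higher and 0 were lower, with a median of 0.82. CDC20, an activator of the anaphase-promoting complex, differed by 2.78 (8.65 ± 0.34 against 5.87 ± 0.82), the mitotic and meiotic kinase PLK1 by 2.64 and cyclin CCNB2 by 2.48. The 12 members not called differed by -0.47 to 0.98, PCNA, the clamp of DNA replication, by -0.13. TOP2A was at 10.36 to 10.59 and at 8.59 to 9.92, with a difference of 1.12.

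Of the Sertoli and Leydig cell genes, 5 of 65 were lower and 2 were higher, and AMH had the largest of these negative differences. AMH was at 7.07 in LWM02, 5.07 in YLM19 and 7.27 in YLM20, against 11.05 in DUM12, 9.57 in DUM15, 9.58 in IBM23, 10.49 in IBM24, 9.10 in LWM04 and 9.33 in YLM18. LWM04 and YLM18 were the lowest of the 6, and all 6 lay above the 3 PRM1-high testes. The difference was -3.38 (6.47 ± 1.21, SD, n = 3, against 9.85 ± 0.75, n = 6), with -2.03 within LW and -3.16 within YL. Its receptor AMHR2 was lower by 1.94 (5.21 ± 1.36 against 7.15 ± 0.24), mainly through YLM19 at 3.67, and the inhibin subunit INHA, made by Sertoli cells, was at 8.41 to 9.41 against 9.96 to 10.98. The chemokine CXCL12 was at 7.31 to 8.94 against 9.35 to 10.76.

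Over the whole Sertoli list, 4 of 36 measured genes were lower (AMH, AMHR2, INHA and CXCL12), 2 were higher and 30 were not called, with a median of -0.05. PTGDS, a prostaglandin D synthase, was higher by 1.86 (10.76 ± 0.13 against 8.90 ± 0.39) and MRO, a gene of developing testes, by 1.68 (8.72 ± 0.24 against 7.05 ± 1.14). MRO was at 8.09 in LWM04 and 8.06 in YLM18, close to the PRM1-high testes, and at 5.28 to 7.87 in DU and IB. Clusterin (CLU), an abundant Sertoli product, was at 14.63 ± 0.01 in PRM1-high and 14.43 ± 0.15 in PRM1-low testes. The tight junction protein CLDN11 was at 13.60 ± 0.03 and 13.14 ± 0.27 without overlap, and the gap junction protein GJA1 at 12.77 ± 0.16 and 12.48 ± 0.22. VIM, also abundant, was lower without overlap, at 13.65 ± 0.22 and 14.28 ± 0.22, a difference of -0.63. GATA4 (-0.83) and NR5A1 (-0.90) did not overlap either, and all of these differences stayed under the 1 log2 of the rule. None of the 10 genes of tight and gap junctions was called.

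Leydig cell and steroid genes were mostly not called, with 0 of 30 higher, 1 lower and a median of -0.39. Several were lower on average but overlapped: VCAM1 (-1.49), STAR (-1.41), CYP11A1 (-1.28) and SCARB1 (-1.09). The largest positive difference in the list was 0.35, that of SQLE. INSL3, the peptide hormone of Leydig cells, was at 13.88 to 14.30 in PRM1-high testes and at 14.15 to 14.67 in the others, and the groups overlapped. CYP17A1, the enzyme that commits steroids to androgens, was at 10.87 in LWM02, 11.78 in YLM19 and 11.59 in YLM20, against 11.71 to 13.59. Its difference of -1.22 was -1.82 within LW and -0.03 within YL. CYB5A, a partner of CYP17A1, differed by -0.28. The 1 gene called lower was FDXR, the reductase that passes electrons to mitochondrial steroid hydroxylases, at 7.99 to 9.03 against 9.36 to 9.92.

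**Figure D3:**
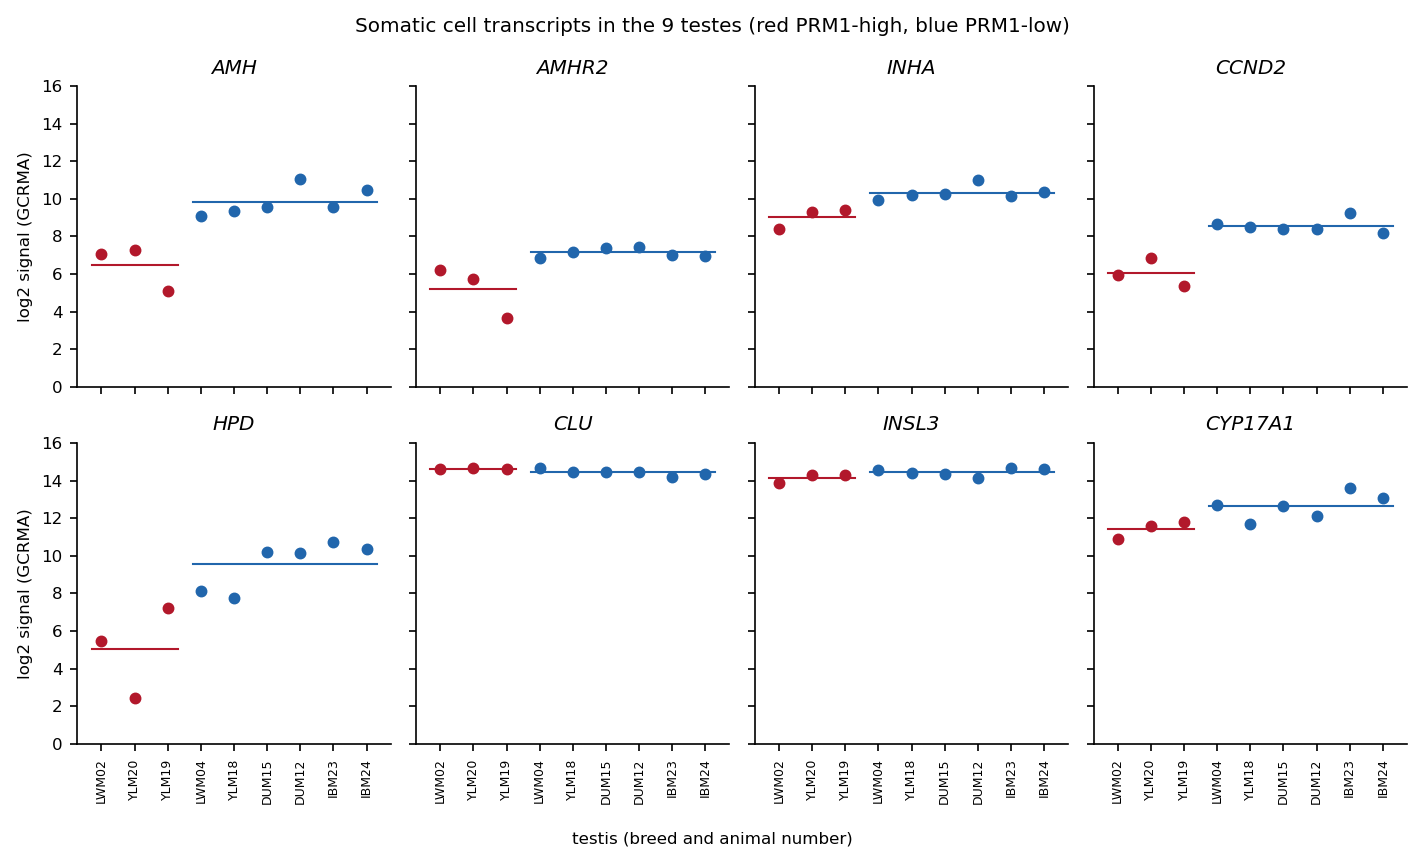
Log2 signal of 8 transcripts in each of the 9 testes, PRM1-high in red and PRM1-low in blue, with the mean of each group as a line. AMH, AMHR2, INHA and CLU are of the Sertoli list and INSL3 and CYP17A1 of the Leydig list. HPD and CCND2 are among the largest negative differences, and their cell of origin was not tested. AMH, AMHR2, INHA, CCND2 and HPD are lower in the 3 PRM1-high testes without overlap, CLU and INSL3 are level, and CYP17A1 overlaps.

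The largest negative difference over all genes was that of HPD, an enzyme of tyrosine breakdown, which was at 5.48 in LWM02, 7.25 in YLM19 and 2.43 in YLM20, against 10.17, 10.20, 10.71, 10.38, 8.11 and 7.75 in DUM12, DUM15, IBM23, IBM24, LWM04 and YLM18. It differed by -4.50 (5.05 ± 2.44 against 9.55 ± 1.28) and, unlike most genes, was lowest in YLM20. CCND2, a cyclin of the G1 phase, was lower by 2.51 (6.06 ± 0.75 against 8.57 ± 0.35), by 2.71 within LW and by 2.41 within YL. SCG5, a chaperone of secretory granules, differed by -3.19 (3.34 ± 1.02 against 6.53 ± 0.69), SERPINF1, a secreted serpin, by -2.29 and CCL2, a chemokine for monocytes, by -2.26. The 12 largest negative differences also held ALDH1L1, an enzyme of folate metabolism (-2.38), CDC42EP5 (-2.16), LOC100153094 (-2.10) and ITIH5 (-2.08). Next to HPD in size were LOC396781 (-4.26) and LOC100152327 (-3.52), which followed one another over the testes: LOC396781 was at 4.92 to 6.75 in PRM1-high testes, at 8.31 in LWM04, 8.88 in YLM18 and 9.20 in DUM15, and at 10.61 to 11.89 in the other 3.

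Markers of other cell types that a piece of testis could hold were called in 3 cases, all lower in PRM1-high testes. The mean level of the 12 epididymis and tract genes was 3.10 to 3.14 in PRM1-high and 3.21 to 3.59 in PRM1-low testes, with 2 of 12 detected in any testis and 0 called. KRT8, an epithelial keratin, was among them at 3.83 to 4.64 against 4.57 to 8.46, overlapping through LWM04. The mean of the 11 macrophage genes was 4.49 to 4.98 against 4.86 to 5.69, with TYROBP called lower (-1.11) and 0 higher; 10 of the 11 differences were negative and the list median was -0.85. The mean of the 10 endothelial genes was 5.19 to 6.02 against 5.56 to 6.14, and that of the 13 smooth muscle and myoid genes was 7.12 to 7.21 against 6.96 to 7.46, with 0 called in both lists. Of 4 red blood cell genes ALAS2 was lower (1.62 to 1.98 against 2.02 to 4.67) whereas HBB was at 9.76 ± 0.34 and 9.77 ± 0.17, and of 9 striated muscle genes CKM was lower (3.96 to 5.20 against 5.62 to 7.48). The list means of epididymis and of striated muscle (3.05 to 3.09 against 3.10 to 3.48) did not overlap between the groups. The part of these cell types in the testis differences was not tested.

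Immediate early genes respond within minutes to handling and to the stop of blood flow. Of the 15 genes of the list of immediate early and heat shock genes, 5 were lower and 1 was higher, with a median of -0.97. JUN was at 8.75 to 9.21 against 9.82 to 10.65, EGR1 at 6.02 to 6.66 against 6.83 to 7.97 and IER2 at 5.21 to 6.36 against 6.65 to 7.40. ZFP36 and MYC made up the 5, each with a difference of -1.16, whereas FOS, ATF3, IER3 and DUSP1, at -1.37 to -0.96, were not called because the groups overlapped or the difference was under 1. The 1 member that was higher was DNAJB1, a heat shock co-chaperone, at 9.61 to 10.80 against 6.97 to 8.70, and HSP90AA1, an abundant chaperone, was not called at 0.59. The part of tissue collection in these values was not tested.

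Genes that the study singled out for variation among breeds in the testis were chosen on these same samples, and their differences are therefore not independent evidence. The genes were matched by symbol only, and the study used another annotation. A symbol may therefore stand for a different probeset here than in the study. CRISP1 (2.13 to 2.21 over the testes) and CASP8 (2.49 to 3.30) were dim and not called here. This does not show that the features listed by the study were flat. Of 8 measured, 5 were higher and 0 were lower. Besides PRM1 and SPA17 they were ALDH1A1, an enzyme of retinoic acid synthesis (11.69 ± 0.25 against 8.15 ± 1.63), the water channel AQP8 (7.94 ± 0.02 against 4.25 ± 2.44) and PAQR7, a membrane progestin receptor (6.78 ± 0.30 against 4.94 ± 0.91). For these last 3, LWM04 and YLM18 were the nearest of the PRM1-low testes to the PRM1-high group. AQP8 was at 7.24 in LWM04, 6.35 in YLM18 and 5.61 in DUM15, but at 1.74, 1.77 and 2.79 in DUM12, IBM23 and IBM24. PAQR7 differed by 0.40 within LW and by 0.81 within YL, and ALDH1A1 by 1.5 and 2.02. ALDH1A1 was also the 1 gene called among the 10 of retinoid metabolism and response, of which 0 were lower.

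Since breed and group overlapped in part, the differences were set beside those within LW (LWM02 minus LWM04) and within YL (the mean of YLM19 and YLM20 minus YLM18). The sign of a called probeset is fixed in these pairs by the rule. Its size is not free either, because the same testes entered the group means that had to differ by 1 log2. The counts below therefore describe the called probesets and are no separate check of them. Of the 1132 probesets called higher, 745 differed by at least 1 log2 within LW, 945 within YL and 667 within both. Of the 474 called lower, 205 did so within LW, 263 within YL and 114 within both. Over all 23999 probesets, 1993 differed by at least 1 log2 in either direction within LW, 2177 within YL and 969 in the same direction within both. The median within-breed difference was 1.20 (LW) and 1.62 (YL) for the probesets called higher, and -0.93 and -1.05 for those called lower. In the germ cell lists, PRM1 differed by 6.81 and 9.49, CRISP2 by 4.63 and 7.33, ODF1 by 5.04 and 6.88, and LDHC by 3.21 and 5.42. Each LW value rests on 1 testis a side, and each YL value on 2 against 1.

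**Figure D4:**
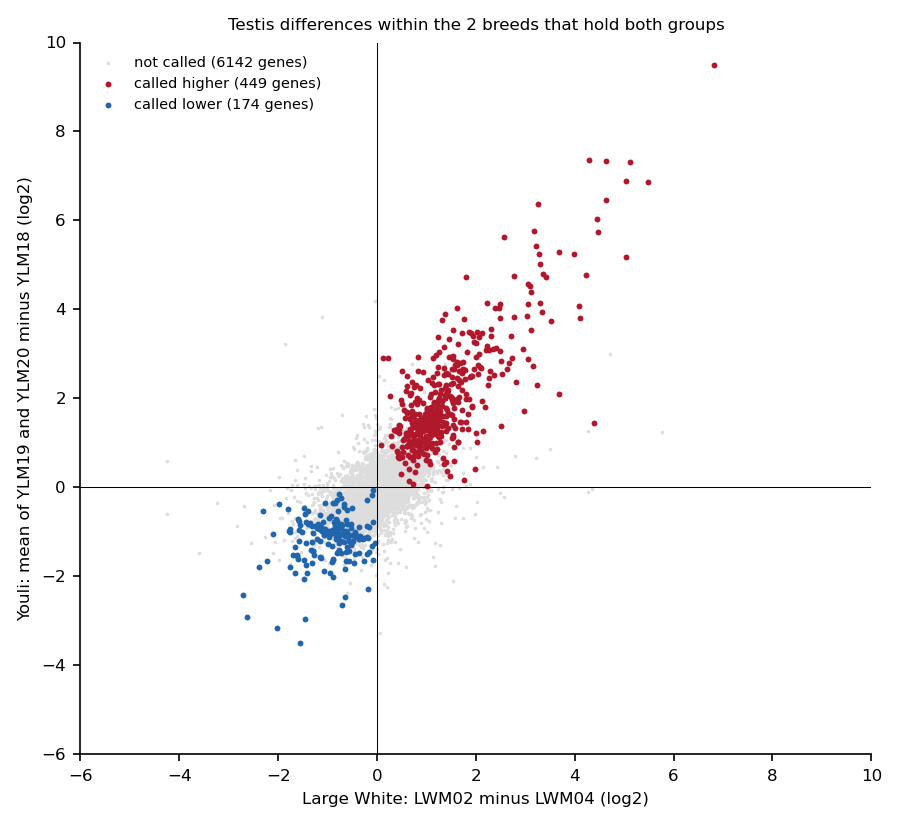
Difference in log2 of each gene between PRM1-high and PRM1-low testes within Large White (horizontal axis) and within Youli (vertical axis), with genes called higher in red, called lower in blue and not called in grey. The 449 genes called higher spread to the upper right, to 6.81 and 9.49 for PRM1, and the 174 called lower lie closer to 0.

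Pituitary transcripts were found in some testes and crossed the groups. PRL was at 6.64 in LWM02, 8.16 in YLM19 and 6.36 in IBM24, but at 1.86 to 2.03 in the other 6. GH1 was at 6.52 in LWM02, 5.47 in YLM19 and 6.55 in IBM24, and at 2.39 to 3.38 elsewhere. Prolactin and growth hormone are the leading products of the adenohypophysis, where PRL averaged 15.31 and 15.15 and GH1 15.99 and 15.82 in PRM1-high and PRM1-low males. Neither gene was called, and in the list of pituitary hormones and receptors 0 of 24 were higher and 3, INHA, EGR1 and CHGA, were lower. Of 18 hypothalamic peptide genes 0 were called. TAC3, a tachykinin precursor, was at 9.22 in YLM19 and 9.56 in YLM20 and at 3.78 to 6.76 in the other 7.

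The arrays of the other tissues, which the rule did not use, show whether the same boars differed outside the testis. Each of the 4 tissues was fitted by limma over 23999 probesets, 3 PRM1-high against 6 PRM1-low males, two-sided with Benjamini-Hochberg adjustment. At an adjusted p under 0.05, 2 probesets were called in the hypothalamus (0.00833%) and 0 in the adenohypophysis, thyroid gland and backfat (0%). At an unadjusted p under 0.05 there were 960, 1384, 1124 and 741 probesets, or 4.0, 5.77, 4.68 and 3.09% of those tested. With a robust variance prior and an intensity trend in limma the counts at the adjusted threshold were 0, 1, 0 and 0, respectively. For the mean of the 4 tissues of each boar, 1 probeset was called (0.00417%) and 1560 (6.50%) had an unadjusted p under 0.05. Few differences outside the testis thus passed the test, with 3 boars in the smaller group.

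Both probesets called in the hypothalamus were lower in PRM1-high males. TNFAIP1, an adaptor of a ubiquitin ligase complex, was at 5.00 in LWM02, 5.04 in YLM19 and 5.09 in YLM20, against 6.11, 6.04, 6.15, 6.36, 6.46 and 6.37 in DUM12, DUM15, IBM23, IBM24, LWM04 and YLM18. Its difference was -1.20 (SE 0.10, limma adjusted p = 0.0225). The groups did not overlap in the other tissues either: the difference was -1.47 (adjusted p = 0.393 by limma) in the adenohypophysis, -0.98 (0.807) in the thyroid gland and -1.60 (0.9997) in backfat, and these 3 did not pass the test. In the testis it was -2.0, at 5.63, 5.78 and 5.88 against 7.39 to 8.19. Within LW and YL the difference in the hypothalamus was -1.46 and -1.30. In the 7 females, whose arrays entered no fit here, TNFAIP1 ranged from 5.13 to 7.0 in the hypothalamus. The call of TNFAIP1 in the hypothalamus was lost when DUM12, IBM23, IBM24, LWM02, YLM18, YLM19 or YLM20 was left out, with differences of -1.23 to -1.18 and adjusted p of 0.0506 to 0.285 by limma, and with breed as covariate (-1.37, adjusted p = 0.192).

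The second was a probeset to which the array annotation used here gives no gene symbol. It was at 5.59, 5.64 and 5.56 in LWM02, YLM19 and YLM20 and at 6.60 to 6.77 in the 6 others, a difference of -1.05 (SE 0.05, limma adjusted p = 0.000301). The call held when any 1 boar was left out (adjusted p of 0.000345 to 0.00606 by limma). With breed as covariate the difference was -1.03 and the call was lost (adjusted p = 0.192 by limma). With a robust variance prior and an intensity trend it was lost too (0.0948 by limma). In the adenohypophysis (-0.72) and thyroid gland (-0.86) the groups did not overlap, but the test was not passed (adjusted p = 0.799 and 0.260 by limma). In backfat (-0.45) they overlapped. In the testis the probeset was at 5.89 to 5.94 against 6.15 to 7.35 and was not called. The 1 probeset called in the mean of the 4 tissues was that of CASP8, an initiator caspase of apoptosis, at 3.52 ± 0.05 (n = 3) against 4.02 ± 0.05 (n = 6), with a difference of -0.50 (SE 0.04, limma adjusted p = 0.0331). The study also lists CASP8 among the breed genes that it chose on these testes, but it used another annotation. The match is thus by symbol only, and the call is not taken as independent evidence. The probeset was dim in the testis, at 2.49 to 3.30, with a difference of -0.31 and overlapping groups. No probeset was called in the mean with breed as covariate or when any boar but LWM02 was left out.

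Hormone genes of the hypothalamus and adenohypophysis that govern the testis did not pass the test. In the adenohypophysis, LHB, the beta subunit of luteinizing hormone, differed by -0.10 (SE 0.11) and FSHB, that of follicle-stimulating hormone, by -0.52 (SE 0.89). The receptor for gonadotropin-releasing hormone, GNRHR, differed by 0.95 (SE 0.62). The largest and smallest differences in the list were those of ESR1 (1.02, SE 0.53) and EGR1 (-1.90, SE 0.90), and 0 of 24 genes were called, the smallest adjusted p being 0.799 by limma. In the hypothalamus 0 of 18 peptide genes were called (smallest adjusted p = 0.958 by limma), with differences from -1.81 (PMCH, SE 1.46) to 2.70 (AVP, SE 2.58). GNRH1 was near the bottom of the scale, at 2.99 and 2.81 in the 2 groups. The standard errors of several of these genes exceed 1 log2, so that differences of that size were not detectable with these arrays.

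The probesets called in the testis were also read in the other tissues. Of the 1132 called higher in the testis, 0 were called in the hypothalamus, adenohypophysis, thyroid gland or backfat, and of the 474 called lower 1 was called, TNFAIP1 in the hypothalamus. Unadjusted p under 0.05 was reached by 4.33, 7.86, 5.92 and 4.24% of the 1132 in the 4 tissues and by 3.59, 10.3, 6.96 and 8.23% of the 474, against 4.0, 5.77, 4.68 and 3.09% of all probesets. The median difference of the 1132 was 0.02 log2 in the hypothalamus, adenohypophysis and thyroid gland and 0.08 in backfat.

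The 4 marker genes were detected in a single backfat array. In the backfat of YLM19, PRM1 was at 7.55, CRISP2 at 8.55, LDHC at 7.85 and ZPBP at 7.10, whereas in the other 15 backfat arrays PRM1 was at 2.38 to 2.48, CRISP2 at 2.65 to 2.90, LDHC at 2.20 to 2.28 and ZPBP at 2.17 to 3.41. PHF7 (6.55), ACRBP (6.29), TNP2 (4.995) and PRM2 (4.57) were raised there too. CYP17A1 was at 4.08, against 2.23 to 2.33 in the other 15 backfat arrays. INSL3 was at 7.60, but it also reached 7.21 in another backfat array and 6.39 in a hypothalamus array. AMH, at 1.72, was not above the other arrays, and in the testis of YLM19 it was at 5.07. In the backfat array of YLM19, 123 of the 1132 probesets called higher in the testis (10.9%) were at least 1 log2 above every other backfat array. Over all probesets it was 885 of 23999 (3.69%). In the other 63 arrays of the 4 tissues, at most 22 of the 1132 (1.94%) stood out in this way. YLM19 is the boar whose testis had the highest PRM1. Between the groups, the 9 striated muscle genes had backfat differences of 1.84 to 2.97 (median 2.68), with 0 called, and their part in the other backfat values was not tested. In backfat the 4 markers differed by 1.71 (PRM1) to 1.93 (CRISP2) between the groups, each with an adjusted p of 0.9997 by limma, and without YLM19 both groups were at the bottom of the scale for PRM1, CRISP2 and LDHC. Whether the sample, the RNA or the hybridisation of that backfat held testis material was not tested.

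**Figure D5:**
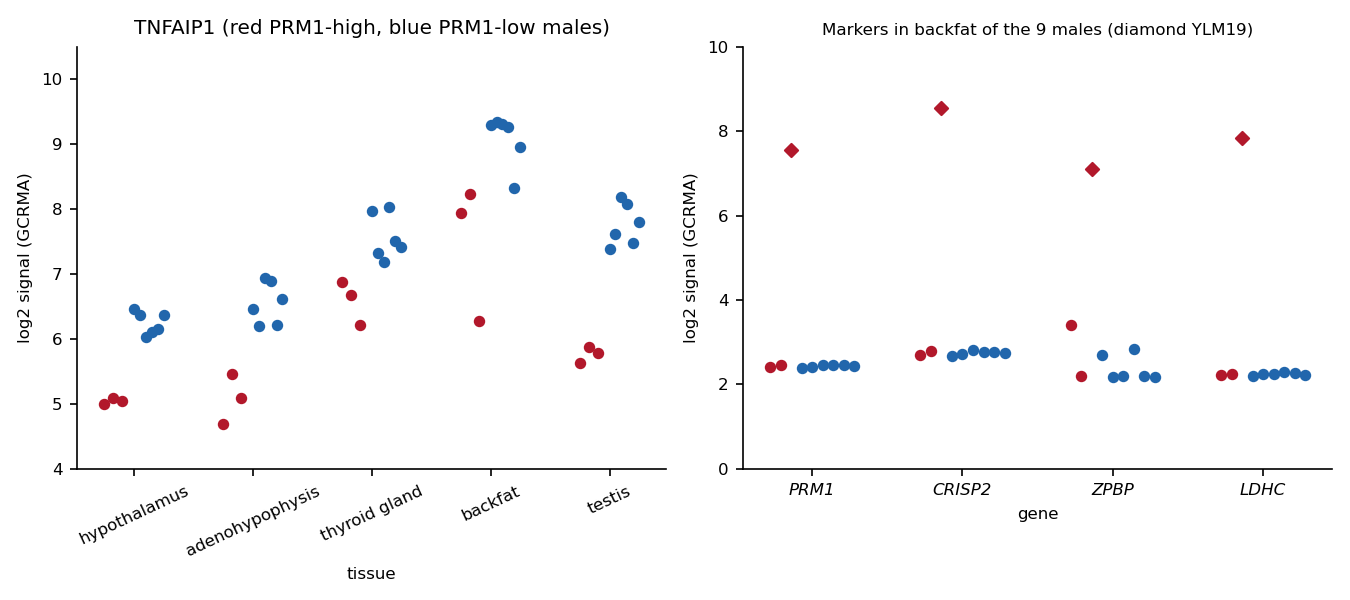
Left, log2 signal of TNFAIP1 in 5 tissues of the 9 boars, PRM1-high in red and PRM1-low in blue; the groups do not overlap in any of the 5 tissues. Right, log2 signal of PRM1, CRISP2, ZPBP and LDHC in backfat of the same boars, with YLM19 as a diamond at 7.10 to 8.55.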

How the data were processed

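Gene expression was measured on Affymetrix porcine arrays, and the labels name GCOS as the scanning software. The authors ran GCRMA once over every array of the 5 tissues, and what they deposited is on the log2 scale, which was kept as it stood. Of 24123 probesets, 124 control probesets were left out. Gene symbols came from the array annotation: 10069 probesets had 1 symbol, 198 several and 13732 none, and 9961 matched a RefSeq gene of Sscrofa11.1. A gene is shown by its probeset of highest mean over the testes, and 149 called genes had another probeset that was not called the same way. Levels of different probesets were not compared.

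Samples were assigned by title, because other fields conflict with them for thyroid arrays. The thyroid values and the mean of the 4 tissues therefore rest on the titles. The members, the 21 gene lists and the comparisons were chosen with earlier results of these data known. Of 545 listed genes, 259 were measured. The testes were compared by differences of group means, without a test. Other tissues were tested with limma 3.58.1 (lmFit, eBayes; R 4.3.3, statmod 1.5.0), and the scripts were tested on simulated data. Named genes were the 12 largest differences in each direction, the brightest called and uncalled list members, the 4 markers, the breed genes of the study, called genes and extreme list members of other tissues, and the 10 genes most like PRM1. Other genes (such as SPAM1, KIT, DDX4, CYP17A1, PRL, GH1, TAC3 and KRT8) were chosen after their values were seen. A gene in several lists was counted in each. Deviations of same-numbered arrays from the mean of their PRM1 group correlated across the 4 tissues (mean r of deviations 0.106 to 0.403). Arrays of different animals were not compared and breed was not removed, so that these values cannot check the pairing. Alternatives covered the size of difference, dim probesets (mean under log2 4), array centring, overlap, breed, the PRM1 division, detection level, variance prior and leaving out each boar, and 2 more were chosen after seeing the data. Precision is limited by the number of arrays.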

Additional observations from a re-analysis of the deposited data

Results flagged for a closer look

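In a group of 6 testes or 9 boars, a single array was set apart where its gap to the next exceeded Dixon's critical share of the range, which chance does in about 1 of 20 groups. Among 94 of the genes named in the text, this held in the PRM1-low testes for 7 (7.45%). PEBP4 was highest in LWM04 (5.42, against 2.17 to 2.91 in the other 5), with a gap of 0.773 of the range, and DDX4 was highest in LWM04 (2.62, against 2.29 to 2.40), with a gap of 0.667. CDC20 was lowest in IBM23 (4.24, against 5.98 to 6.48), with a gap of 0.779, and TPI1 was lowest in DUM12 (9.70, against 10.16 to 10.25), with a gap of 0.849. EFCAB12 was lowest in IBM24 (2.78, against 2.91 to 2.93), with a gap of 0.892. PRL and GH1 were highest in IBM24, with gaps of 0.962 and 0.762. In backfat of the 9 boars YLM19 was highest for all 4 marker genes, with gaps of 0.986 for PRM1, 0.979 for CRISP2, 0.749 for ZPBP and 0.985 for LDHC. TAC3 differed in opposite directions within the 2 breeds, by -1.85 in LW and 3.21 in YL, so that the differences were 5.06 log2 apart, which was not tested.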

How the results depend on the processing

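With a difference of at least 2 log2, 407 probesets were higher and 47 lower in the testis. With overlap of the groups allowed, 822 were lower. Without LWM04 and YLM18, chosen after seeing the data, 907 were lower. Leaving out 1 testis gave 1043 to 1366 higher and 445 to 786 lower, the 786 without YLM20. The other testis alternatives (array centring, dim probesets, only LW and YL, the PRM1 division, detection level) kept each count within 1.5 times of the reported one, but with only LW and YL 887 of the 1132 higher and 238 of the 474 lower probesets were called again.

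In the hypothalamus, 0 probesets were called with breed as covariate and 0 with a robust variance prior and an intensity trend, and 1 to 9 when 1 boar was left out (9 without LWM02, 1 without DUM12, IBM23, YLM18, YLM19 or YLM20). In the adenohypophysis 1 was called with this prior and trend, and 0 to 15 when 1 boar was left out (15 without LWM02, 4 without YLM19, 1 without DUM12 or YLM20). The ranges were 0 to 8 in the thyroid gland and 0 to 8 in backfat (8 without LWM02 in each, and 1 and 2 without YLM20). For the mean of the 4 tissues, 0 were called with breed as covariate, 0 to 9 when 1 boar was left out (9 without LWM02), and 2 without backfat, chosen after seeing the data. With all 36 arrays and the animal as replicate block, the pairing given by the titles, 27 were called. The cause of these changes was not tested. With 3 boars in 1 group, the number of arrays limits which differences could be seen.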
